A study of Mus musculus with 24 samples.

Results

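The Kcn genes code for the pores and the auxiliary subunits of potassium channels, and they were read here in mouse hearts over 1 cycle of light and darkness. A gene was taken as a member if the platform annotation gave its feature a single symbol that starts with Kcn, which left 90 genes of 22180. All hearts came from male mice of 8 weeks that were homozygous for Clock delta 19, a germline mutation that removes an exon from Clock and leaves a protein unable to activate transcription. The mutation is present in every cell type and in every group, so no group carries normal Clock, and wild-type hearts were not analysed here. The mice were kept under 12 h of light and 12 h of darkness, and 4 hearts were taken at each of 6 Zeitgeber times. Zeitgeber time (ZT) is the number of hours since the lights came on, so that ZT03, ZT07 and ZT11 belong to the light phase and ZT15, ZT19 and ZT23 to darkness. Total RNA of 24 hearts was read on 24 arrays.

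Potassium channels carry the outward currents that end the action potential of a heart muscle cell and hold its resting potential. In mouse ventricle the early repolarization runs through the fast transient outward current, whose pore is built from Kcnd2 and Kcnd3 products and whose surface expression needs the calcium-binding subunit from Kcnip2. Inward rectifiers of the Kcnj group set the resting potential, leak channels of the Kcnk group pass a steady current, and Kcnn products open when calcium rises. In normal mouse hearts Kcnip2 is known to vary over the day under the control of the transcription factor gene Klf15, and Kcnd2 varies as well.

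Each value below is a distance from the gene's own median over the 24 arrays, in log2 units. They say nothing about how abundant a channel is, so the labelled tissue, myocardium, could not be checked by the level of its markers, and no gene's level was set against another's. The log base is not given in the sources used here and is assumed to be 2. Each size would be 1.44 times larger if it were e. In a whole-heart extract, fewer cells of a type and less RNA per cell cannot be told apart.

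Of the 90 genes, 36 code for voltage-gated pore subunits or their silent modifiers and 12 for auxiliary subunits of such channels (Kcnab, Kcne and Kcnip). Inward rectifiers made up 14 and two-pore-domain leak channels 13. A further 12 had symbols in Kcnm, Kcnn, Kcnt or Kcnu, most of which code for channels opened by calcium or sodium or for their subunits. The other 3 symbols were Kcnd3os, Kcnq1ot1 and Kcnrg, of which the first pair are antisense transcripts. A list of genes for potassium currents of the mouse heart held 23 measured members. Kcnk3 was left out because its features carry several symbols.

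Because CLOCK and its partner bind the sequence CACGTG, the promoters of the members were searched for it. The window was the stretch from 250 bases before to 50 bases after each start site in RefSeq's annotation of GRCm38.p6, and 70 members matched with 95 start sites. CACGTG, which reads the same on both strands, lay in 7 of the 95 windows (7.37%), against 7.15% of all 32851 windows. The 6 genes with it were Kcnab1, Kcne4, Kcnh4, Kcnj2, Kcnk5 and Kcnn4. Members without a matched start site were not searched, so a gene missing from these 6 does not thereby lack the sequence. AGGTCA, the core bound by REV-ERB and ROR receptors, lay on either strand of 6.32% of the members' windows and 16.3% of all windows. AGAACA, the core bound by the glucocorticoid receptor, lay in 16.8% and 19.0%. Overlaps between matches were not removed, and a match is a description of letters only.

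The 250 bases before the start site are shown for 4 members, as 2 that hold CACGTG (in capitals) and 2 whose light-dark difference is described further on and that do not hold it. The Kcnj2 stretch lies at chr11:111065914-111066163, plus strand, with CACGTG starting at base -84 from the start site. The Kcnn4 stretch lies at chr7:24370013-24370262, plus strand, with CACGTG starting at base -133. The Kcnd2 stretch lies at chr6:21215096-21215345, plus strand, and the Kcna4 stretch at chr2:107290339-107290588, plus strand.
Kcnj2: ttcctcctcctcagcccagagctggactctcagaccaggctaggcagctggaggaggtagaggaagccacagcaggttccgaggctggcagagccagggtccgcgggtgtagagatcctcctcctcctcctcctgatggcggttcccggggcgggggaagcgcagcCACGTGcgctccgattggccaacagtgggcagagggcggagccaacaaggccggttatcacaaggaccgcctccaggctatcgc
Kcnn4: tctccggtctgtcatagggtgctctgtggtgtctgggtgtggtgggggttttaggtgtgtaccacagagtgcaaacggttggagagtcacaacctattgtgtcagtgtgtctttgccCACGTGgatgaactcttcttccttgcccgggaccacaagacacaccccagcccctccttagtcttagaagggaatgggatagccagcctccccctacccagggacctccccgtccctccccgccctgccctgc
Kcnd2: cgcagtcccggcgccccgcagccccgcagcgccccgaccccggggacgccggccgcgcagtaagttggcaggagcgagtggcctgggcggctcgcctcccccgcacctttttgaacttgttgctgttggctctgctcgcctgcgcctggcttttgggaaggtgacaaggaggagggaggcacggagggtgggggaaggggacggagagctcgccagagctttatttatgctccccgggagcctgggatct
Kcna4: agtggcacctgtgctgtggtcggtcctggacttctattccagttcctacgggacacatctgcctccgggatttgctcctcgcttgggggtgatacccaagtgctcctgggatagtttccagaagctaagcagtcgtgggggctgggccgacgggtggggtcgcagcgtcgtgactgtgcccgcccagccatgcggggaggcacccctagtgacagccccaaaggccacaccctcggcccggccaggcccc

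Kcnn2 was higher by day than by night, and of the 90 members it alone passed more than 1 test. It codes for a small-conductance calcium-activated channel (SK2) that is known to be more abundant in atrium than in ventricle. Its hearts read 0.22, 0.14, 0.33 and 0.40 at ZT03. They read 0.15, -0.018, 0.10 and 0.025 at ZT07 and -0.15, 0.13, 0.032 and 0.18 at ZT11. All 4 ZT03 hearts were high, and 3 of them lay above every heart of the other time points. In the dark phase the hearts read 0.0009, -0.11, -0.070 and -0.18 at ZT15, -0.079, -0.0009, -0.18 and 0.10 at ZT19 and -0.17, -0.10, -0.18 and -0.027 at ZT23. The ZT03 hearts did not overlap the ZT15 hearts. The mean was 0.27 ± 0.12 (SD, n = 4) at ZT03 and -0.091 ± 0.076 (SD, n = 4) at ZT15. The difference was 0.36 ± 0.071 (SE), or 1.29-fold (adjusted p with limma 0.021). Over the phases, in the 12 light-phase hearts Kcnn2 had a lowest value of -0.15, a median of 0.14 and a highest value of 0.40, against -0.18, -0.090 and 0.10 in the 12 dark-phase hearts. Light minus dark was 0.21 ± 0.041 (SE), 1.16-fold, with 11 of 12 light-phase hearts above the dark-phase median (adjusted p with limma 0.02).

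Kcnn2 also passed the F test for any difference among time points (adjusted p with limma 0.03). Its light-dark difference passed whichever single heart was left out, at 0.20 to 0.23. The difference between ZT03 and ZT15 no longer passed without ZT03 replicate 3 or without ZT15 replicate 2, 3 or 4 (highest adjusted p with limma 0.078), and the F test no longer passed without ZT03 replicate 1, 3 or 4 (highest adjusted p 0.10). A 24 h cosine fitted to Kcnn2 had an amplitude, from mean to peak, of 0.14 ± 0.037 (SE) and a peak at ZT5.38, which did not pass (adjusted p with limma 0.24).

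Since Kcnn2 is known as an atrial gene, the 7 atrial muscle markers (Nppa, Myl7, Myl4, Sln, Bmp10, Stard10 and Dkk3) were read beside it. Of these, 0 passed any of the tests with limma, and for 0 the unadjusted p was under 0.05 in the F test, in light minus dark or in ZT03 minus ZT15. Their mean per heart ran from -0.15 to 0.42 at ZT03 and from -0.19 to 0.24 at ZT15, and from -0.28 to 0.46 over light-phase hearts and from -0.26 to 0.24 over dark-phase hearts. The list mean was 0.18 at ZT03 and 0.029 at ZT15, and 6 of the 7 light-dark differences were positive (10519 of 22180 over all genes). The SD within time points had a median of 0.22 over these markers and 0.087 over all genes, so the tests were less precise for them. Sln, the atrial calcium pump inhibitor gene, had the highest ZT03 mean of the list, at 0.70 ± 0.82 (SD, n = 4), against 0.25 ± 0.52 at ZT15. Over the 7 atrial markers, ZT03 minus ZT15 was positive for 4 and negative for 3, with a median of 0.010. Over all genes it was positive for 10329 and negative for 11851. In ZT03 minus ZT15, 2 of the 7 nodal markers had an unadjusted p under 0.05 (13% of all genes did), Hcn4 (0.11) and Cacna1g (0.18). Of the 7 nodal differences, 3 were positive and 4 negative, with a median of -0.0062. The mean of the nodal list per heart ran from -0.020 to 0.046 at ZT03 and from -0.049 to 0.033 at ZT15. Of the 7 fibroblast markers, 2 had an unadjusted p under 0.05 for ZT03 minus ZT15, both higher at ZT03. Dcn passed this contrast (0.30 ± 0.072, SE, adjusted p with limma 0.047), where 1.08% of all genes did. For light minus dark the unadjusted p was under 0.05 for 3, all higher in the light phase (Col1a1, Col3a1 and Dcn), against 6.3% of all genes. The mean of the 7 per heart ran from 0.029 to 0.14 at ZT03 and from -0.069 to 0.010 at ZT15, without overlap. Of the other lists, ZT03 minus ZT15 had an unadjusted p under 0.05 for 2 of 8 ventricular markers, Myl3 (-0.22) and Tnni3 (-0.17). The same held for 1 of 7 endothelial markers, Emcn (0.20), and 1 of 6 adipocyte markers, Cidea (-0.22), against 13% of all genes. The mean of the ventricular list per heart ran from -0.10 to 0.035 at ZT03 and from -0.0076 to 0.053 at ZT15, and that of the endothelial list from -0.050 to 0.055 at ZT03 and from -0.12 to 0.055 at ZT15. The part of these cell types in the Kcnn2 result was not tested.

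**Figure D1:**
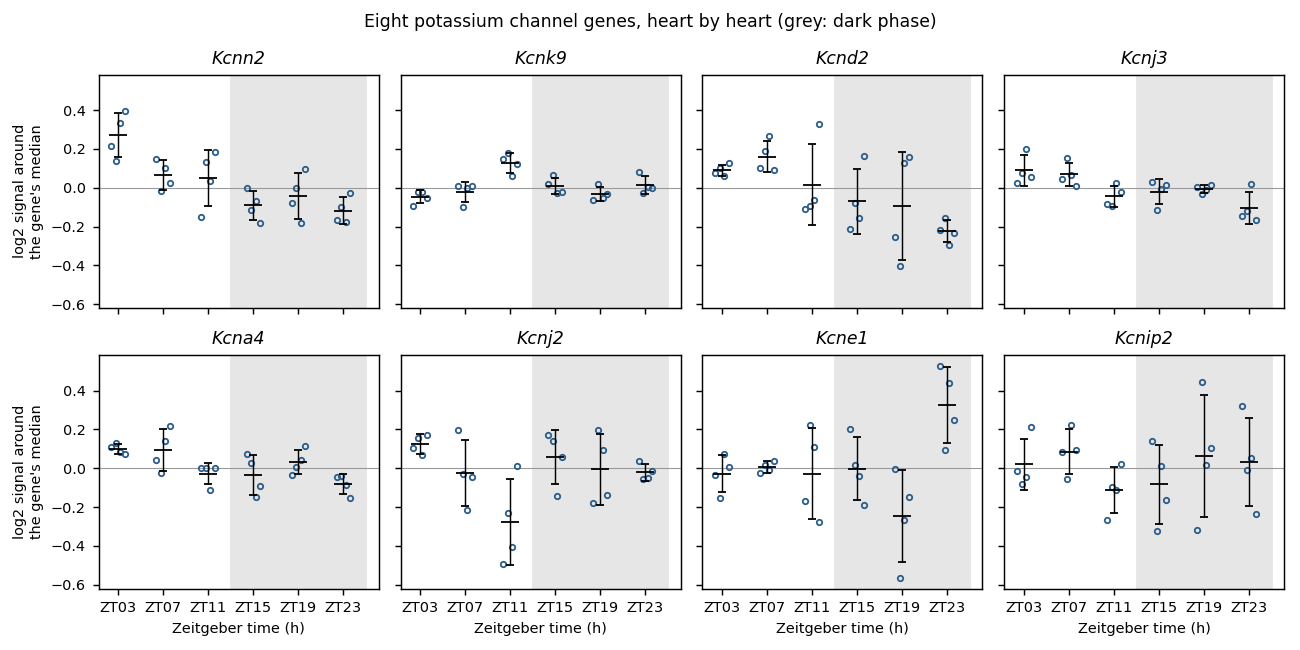
Values of 8 potassium channel genes in each heart (circles) by Zeitgeber time, with the mean and SD of 4 hearts (bars), as log2 signal around the gene's own median, and the dark phase in grey. Kcnn2 is highest at ZT03 (mean 0.27), Kcnk9 at ZT11 (0.13) and Kcne1 at ZT23 (0.33), Kcnj2 is lowest at ZT11 (-0.28), and the Kcnip2 hearts overlap between all time points.

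The other member to pass the F test was Kcnk9, which codes for the acid-sensitive leak channel TASK-3 (adjusted p with limma 0.046). Its hearts read 0.15, 0.18, 0.059 and 0.12 at ZT11. At ZT07 they read 0.0076, -0.10, -0.0012 and 0.0081, and at ZT15 0.020, 0.063, -0.026 and -0.024. The ZT11 hearts thus lay above those of ZT07, and 3 of them above every heart of the other time points. ZT11 minus ZT23 was 0.11 ± 0.034 (SE), which did not pass (adjusted p with limma 0.33). When single hearts were left out, Kcnk9 passed the F test in 5 of 24 cases, and its adjusted p ranged from 0.041 to 0.15. Quantile normalization (0.069), array weights (0.054) and a block for the replicate number (0.081) also took the adjusted p above the threshold.

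Over the whole group, 2 of 90 members (2.22%) passed the F test, where 1.48% of all genes did. At an unadjusted p under 0.05 it was 11 members (12.2%), against 13.4% of all genes. For light minus dark, 1 member (1.11%) passed, against 0.379% of all genes. At an unadjusted p under 0.05 there were 14 members (15.6%), against 10.5%, with 7 higher in the light phase (6.3% of all genes) and 7 lower (4.23% of all genes). The 24 h cosine passed for 0 members with limma, where 0.0631% of all genes passed, and 8 members (8.89%) had an unadjusted p under 0.05, against 10.8%. The shares of the F test and of the cosine at an unadjusted p stand near those of all genes, and the adjusted counts rest on Kcnn2 and Kcnk9.

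Between time points 12 h apart, 1 member passed for ZT03 minus ZT15 (1.08% of all genes did), and 0 members passed with limma for ZT07 minus ZT19 or ZT11 minus ZT23, where 0% of all genes passed in each. At an unadjusted p under 0.05 there were 8 members for ZT03 minus ZT15 (13% of all genes), 5 higher at ZT03 (7.96% of all genes) and 3 lower (5.05%). For ZT07 minus ZT19 there were 13 members, or 14.4% (5.58% of all genes), 5 higher at ZT07 (2.98%) and 8 lower (2.6%). For ZT11 minus ZT23 there were 10 members, or 11.1% (7.34% of all genes), 7 higher at ZT11 (3.62%) and 3 lower (3.72%). The hearts of both time points did not overlap for 6 members between ZT03 and ZT15, where 8.03% of all genes did not overlap. Kcnab1 and Kcnn2 were the ones higher at ZT03, and Kcnj5, Kcnmb2, Kcnmb4 and Kcnq5 the ones lower. For Kcnmb4 the hearts overlapped on either of its features and were apart only on their average. For ZT07 and ZT19 the hearts did not overlap for 3 members, Kcnb2, Kcnf1 and Kcng1 (background 3.63%), and for ZT11 and ZT23 for Kcnd2, Kcng2 and Kcnrg (background 3.32%). Kcnf1, Kcnrg, Kcnmb2 and Kcnmb4 are named here after their values were seen.

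The median light-dark difference was -0.0081 over the 90 members and -0.0022 over all genes, with 31 members on the positive side and 59 on the negative. Over all 22180 genes, 10519 differences were positive and 11661 negative. Over the 23 cardiac genes the median was 0.022, with 14 positive and 9 negative. The SD within time points had a median of 0.081 over the members, 0.12 over the cardiac genes and 0.087 over all genes. By day, the highest mean of a member fell at ZT03 for 14 genes, at ZT07 for 12 and at ZT11 for 19, and by night at ZT15 for 16, at ZT19 for 17 and at ZT23 for 12. Over all genes the share with the highest mean at a given time point ran from 13.9% at ZT07 to 18.5% at ZT11. Fitted cosine peaks lay between ZT0 and ZT6 for 19 members (21.1%, against 26.1% of all genes), and for 12 of the 23 cardiac genes.

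**Figure D2:**
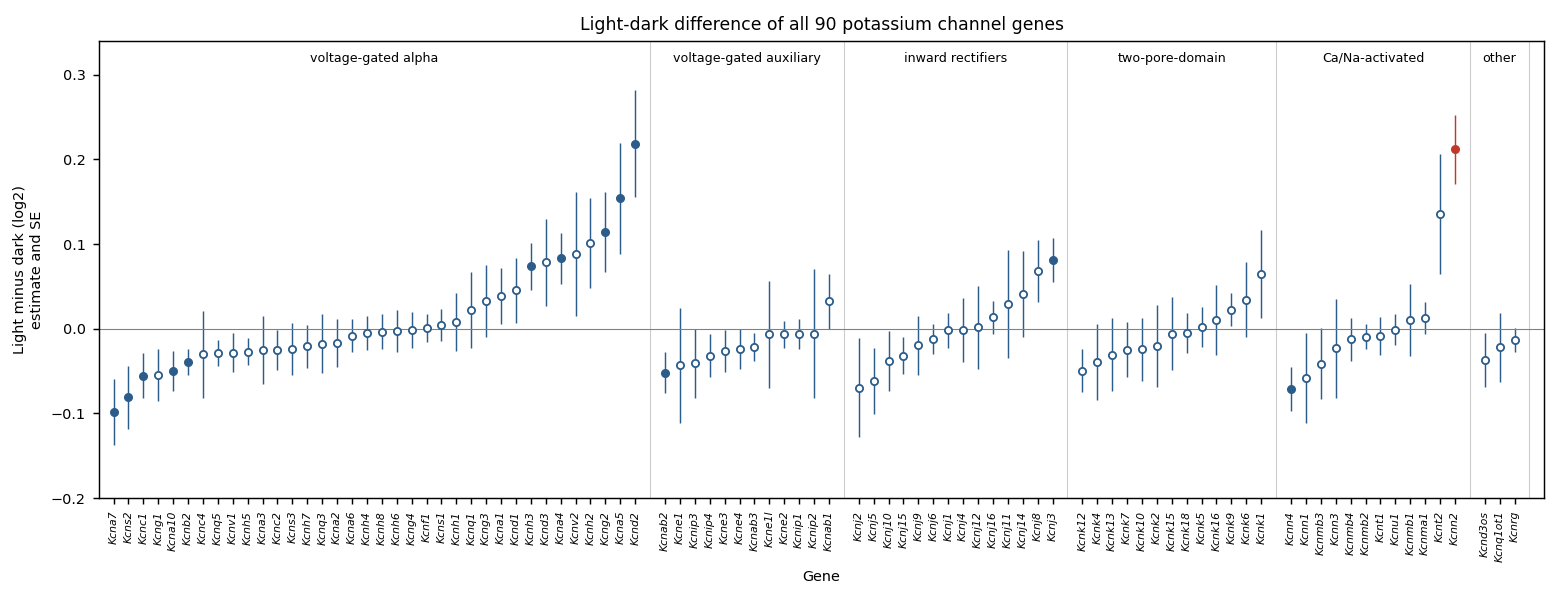
Light-phase minus dark-phase difference (log2, estimate and SE from the limma fit) for all 90 genes, grouped by channel class and sorted within it. The red point, Kcnn2, passed after adjustment over all genes, filled blue points had an unadjusted p under 0.05 and open points did not, and differences ran from -0.10 (Kcna7) to 0.22 (Kcnd2).

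Among the genes of the transient outward current, Kcnd2, which codes for the pore Kv4.2, had the largest light-dark difference of the 90 members but did not pass over all genes. Its hearts read 0.076, 0.10, 0.061 and 0.12 at ZT03 and 0.10, 0.19, 0.26 and 0.089 at ZT07. At ZT11 they read -0.11, -0.10, -0.061 and 0.33. The ZT11 mean of 0.016 therefore rests on replicate 4, since the other 3 hearts were negative. In the dark phase the hearts read -0.21, -0.077, -0.16 and 0.16 at ZT15 and -0.25, -0.40, 0.13 and 0.16 at ZT19. At ZT23 all 4 were low, at -0.22, -0.16, -0.29 and -0.23. Over the phases, in the 12 light-phase hearts Kcnd2 had a lowest value of -0.11, a median of 0.10 and a highest value of 0.33, against -0.40, -0.18 and 0.16 in the 12 dark-phase hearts. Light minus dark was 0.22 ± 0.063 (SE), and 12 of 12 light-phase hearts exceeded the dark-phase median (adjusted p with limma 0.14). Its adjusted p ranged from 0.078 to 0.25 with single hearts left out. The fitted 24 h amplitude, 0.15 ± 0.046 (SE) with a peak at ZT7.57, was the largest of the members and did not pass either (adjusted p with limma 0.29).

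Kcnip2, whose product KChIP2 is the partner of Kv4.2, did not follow the same course. Its hearts read -0.012, -0.079, -0.042 and 0.21 at ZT03, 0.085, -0.058, 0.22 and 0.094 at ZT07 and -0.27, -0.095, -0.11 and 0.024 at ZT11. In the dark phase they read 0.14, -0.32, 0.011 and -0.16 at ZT15, -0.32, 0.45, 0.016 and 0.10 at ZT19 and 0.32, -0.011, 0.053 and -0.23 at ZT23. The hearts of every time point overlapped those of every other, and the SD within time points, 0.20, was the largest of the 90 members. Light minus dark was -0.0057 ± 0.076 (SE) and the adjusted p of the F test with limma was 0.88. Kcnd3, which codes for the related pore Kv4.3, differed by 0.078 ± 0.051 (SE, adjusted p 0.63). A difference between Kcnd2 and Kcnip2 in their light-dark change was not tested.

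Klf15 itself, which is no member, passed the F test (adjusted p with limma 0.026). Its means were -0.080 at ZT03, 0.0054 at ZT07 and 0.20 at ZT11 by day, then -0.032 at ZT15, 0.11 at ZT19 and -0.19 at ZT23 by night. Klf15 was thus highest at ZT11 and lowest at ZT23. The Kcnd2 mean was also lowest at ZT23, but it was highest at ZT07. A link of Klf15 to Kcnd2 or Kcnip2 was not tested. The list of 15 regulators reported for cardiac potassium channel genes had 14 measured. Of these, Klf15 alone passed the F test (1.48% of all genes did) and 0 passed light minus dark with limma (0.379% of all genes). At an unadjusted p under 0.05 there were 3 for light minus dark, as for 10.5% of all genes. Tbx5 (0.094) and Nr3c2 (0.063) were higher in the light phase and Mef2c (-0.14) was lower.

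Kcna4 codes for Kv1.4, the pore of the slow transient outward current, and the array reads it with 2 features that differed. On feature A the hearts read 0.045, 0.023, -0.087 and -0.013 at ZT03 and 0.15, 0.12, -0.063 and 0.077 at ZT15. On feature B they read 0.17, 0.24, 0.25 and 0.16 at ZT03 and -0.0013, -0.067, -0.23 and -0.26 at ZT15. The ZT03 hearts of feature B all lay above the ZT15 hearts, while those of feature A overlapped them. ZT03 minus ZT15 was -0.079 ± 0.049 (SE) on feature A and 0.35 ± 0.071 (SE) on feature B. Tested feature by feature, feature B passed both this contrast (adjusted p with limma 0.025) and the F test (0.02), and feature A passed neither (0.52 and 0.71). Averaged over both, ZT03 minus ZT15 was 0.13 ± 0.051 (SE) and did not pass (adjusted p with limma 0.24). Light minus dark was -0.0024 on feature A and 0.17 on feature B (adjusted p with limma 0.084). The place of either feature's probes in the gene was not analysed here.

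**Figure D3:**
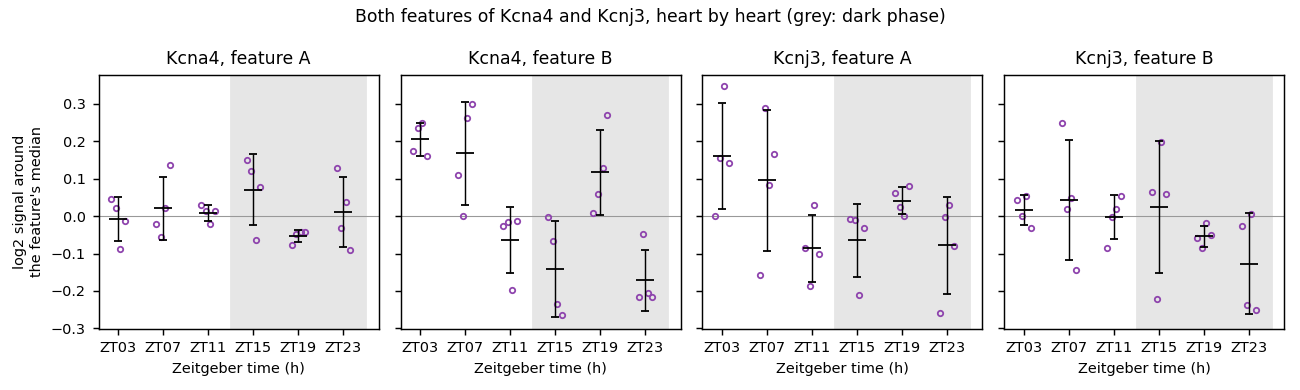
Values in each heart (circles) with the mean and SD of 4 hearts (bars) for the 2 features of Kcna4 and of Kcnj3, as log2 signal around the feature's own median, with the dark phase in grey. Feature B of Kcna4 has ZT03 hearts above all ZT15 hearts (difference 0.35), and feature A does not (-0.079).

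Of the remaining voltage-gated pores of the heart, Kcna5, which codes for Kv1.5 of the ultrarapid current, had means of -0.012 at ZT03, 0.14 at ZT07 and 0.25 at ZT11 by day, then -0.076 at ZT15, 0.0071 at ZT19 and -0.017 at ZT23 by night. Its light-dark difference was 0.15 ± 0.066 (SE), and did not pass (unadjusted p 0.029, adjusted p with limma 0.39). Kcnh2, which codes for the ERG pore, differed by 0.10 ± 0.053 (SE) and Kcnq1, the pore of the slow delayed rectifier, by 0.022 ± 0.045 (SE). Kcnv2, a silent modifier, was 0.16 at ZT03 and -0.15 at ZT15, with an SD within time points of 0.19. Kcng2, another silent modifier, read 0.0029, -0.029, -0.039 and 0.23 at ZT11 and -0.17, -0.14, -0.11 and -0.18 at ZT23. Its 4 ZT11 hearts lay above its 4 ZT23 hearts, though ZT11 minus ZT23, 0.19 ± 0.082 (SE), did not pass (adjusted p with limma 0.61). In this class of 36 genes, 0 passed any of the tests with limma, while 10 had an unadjusted p under 0.05 for light minus dark, 5 higher and 5 lower in the light phase (10.5% of all genes, 6.3% higher and 4.23% lower).

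The 5 higher ones were Kcnd2, Kcna5, Kcng2, Kcna4 (on 1 of its 2 features) and Kcnh3 (0.074 ± 0.028, SE), and the 5 lower ones were Kcna7, Kcns2, Kcnc1, Kcna10 and Kcnb2. The lower ones, at -0.10 for Kcna7 to -0.039 for Kcnb2, differed by less than Kcnd2 or Kcna5 did. Kcnb2, which codes for Kv2.2, read -0.048, -0.018, -0.053 and -0.018 at ZT07 and 0.070, 0.057, -0.00089 and 0.018 at ZT19, and the hearts of these time points did not overlap. Kcng1, a silent modifier, was -0.052 at ZT07 and 0.083 at ZT19, also without overlap. Kcng4 had a difference of -0.086 ± 0.037 (SE) between ZT07 and ZT19, with overlap. Kcnq5, a neuronal and smooth muscle channel gene, was -0.048 at ZT03 and 0.029 at ZT15 without overlap, and Kcna10 was -0.018 at ZT03 and 0.082 at ZT15. The Kcnq5 difference was -0.024 on one of its features, whose hearts overlapped, and -0.13 on the other, whose hearts did not. The Kcna10 difference, -0.10, was -0.059 without ZT15 replicate 2. Adjusted p-values of these contrasts with limma ran from 0.19 for Kcnq5 to 0.86 for Kcng4. Kcna7, Kcns2 and Kcnc1 are named here after their values were seen.

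**Figure D4:**
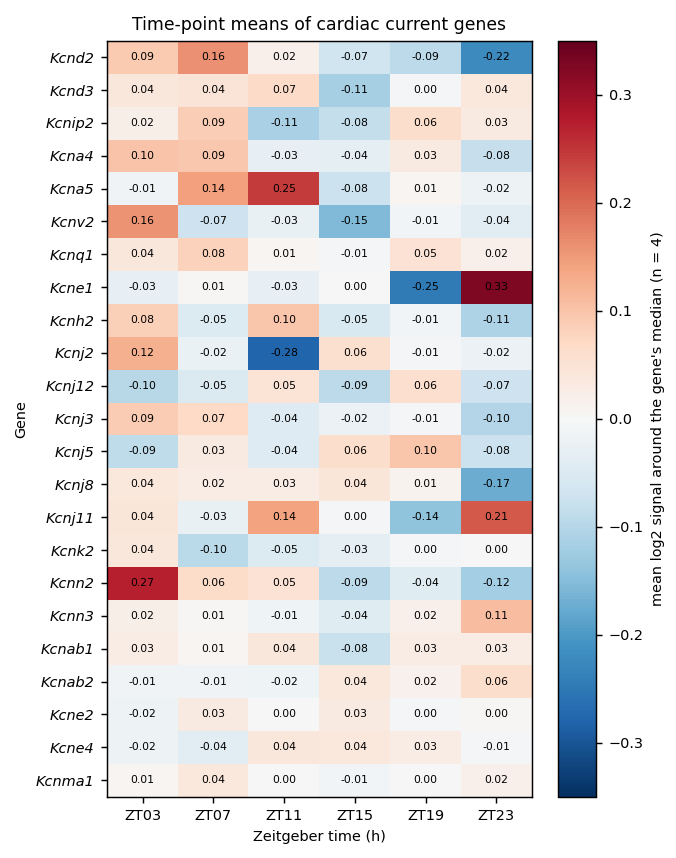
Mean of 4 hearts at each Zeitgeber time for the 23 measured genes of cardiac potassium currents, as log2 signal around each gene's own median (colour and number). The largest positive cells are Kcne1 at ZT23 (0.33) and Kcnn2 at ZT03 (0.27), and the lowest is Kcnj2 at ZT11 (-0.28).

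Among the auxiliary subunits, Kcne1 had the widest range of time-point means of all 90 members. It codes for minK, the subunit that slows the Kcnq1 channel. Its hearts read -0.17, 0.22, 0.11 and -0.28 at ZT11 and -0.0061, -0.56, -0.27 and -0.15 at ZT19. At ZT23 they read 0.53, 0.092, 0.44 and 0.25, all positive and all above the 4 hearts of ZT19. ZT11 minus ZT23 was -0.36 ± 0.12 (SE), with overlap between the hearts of the pair. The adjusted p with limma was 0.41 for this contrast and 0.12 for the F test, so Kcne1 did not pass. Kcne2 (-0.0064 ± 0.016) and Kcne4 (-0.024 ± 0.024), which code for relatives of minK, and the Kv beta subunit genes Kcnab1 (0.033 ± 0.032) and Kcnab2 (-0.052 ± 0.024) had small light-dark differences (± SE) that did not pass. The ZT03 hearts of Kcnab1, at 0.13, 0.0020, -0.020 and -0.0060, did not overlap its ZT15 hearts, at -0.088, -0.037, -0.15 and -0.038. Of the 12 genes of this class, 0 passed any test with limma, 1 had an unadjusted p under 0.05 for light minus dark (Kcnab2), and 11 of 12 differences were negative. Of all genes, 10.5% had such a p, and 11661 of 22180 differences were negative.

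Kcnj2 codes for Kir2.1, the main inward rectifier of ventricular muscle, and its promoter is one of those printed above with CACGTG. Its hearts read 0.10, 0.16, 0.067 and 0.17 at ZT03. At ZT11 they read -0.49, -0.23, -0.40 and 0.012, and at ZT23 0.038, -0.055, -0.052 and -0.012. The ZT03 hearts were all positive and 3 of the 4 ZT11 hearts lay below every heart of any other time point. The adjusted p with limma was 0.22 for the F test and 0.54 for ZT11 minus ZT23 (-0.26 ± 0.10, SE), so Kcnj2 did not pass. Kcnj12, which codes for its partner Kir2.2, was -0.10 at ZT03 and 0.049 at ZT11. Replicate 2 alone carries this ZT11 mean, with 0.19 against -0.0030 to 0.0072 in the other 3 hearts.

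Kcnj3 and Kcnj5 code for the subunits of the acetylcholine-gated channel of atrium and pacemaker cells. Kcnj3 read 0.022, 0.078, 0.20 and 0.055 at ZT03 and 0.046, 0.15, 0.067 and 0.011 at ZT07. It read -0.14, -0.12, 0.017 and -0.17 at ZT23. On this average of 2 features, all 8 hearts of ZT03 and ZT07 were positive and 3 of the 4 of ZT23 negative. On feature A alone, ZT07 replicate 1 read -0.16. On feature B alone, ZT03 replicate 4 read -0.033 and ZT07 replicate 4 read -0.14. Light minus dark was 0.081 ± 0.026 (SE, adjusted p with limma 0.22), and the F test gave an adjusted p of 0.11, or 0.046 without ZT23 replicate 3. Tested singly, its features A and B passed neither light minus dark (adjusted p with limma 0.53 and 0.63) nor the F test (0.31 and 0.73). These 2 features agreed in sign on light minus dark (0.091 and 0.071) but not on ZT03 minus ZT15 (0.23 and -0.0086). Kcnj5 ran the other way between these time points, with hearts at -0.078, -0.070, -0.11 and -0.10 at ZT03 and 0.20, 0.012, 0.0036 and 0.030 at ZT15. They did not overlap, but the difference of -0.15 ± 0.067 (SE) did not pass (adjusted p with limma 0.34).

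Of the pores of ATP-sensitive channels, Kcnj8, known from vascular muscle, read 0.016, -0.10, -0.010 and 0.20 at ZT11 and 0.0021, -0.35, -0.15 and -0.20 at ZT23. ZT11 minus ZT23 was 0.20 ± 0.064 (SE, adjusted p with limma 0.39). Kcnj11, the pore gene of heart muscle, had its highest mean at ZT23 (0.21) and its lowest at ZT19 (-0.14), with an adjusted p of 0.39 in the F test. The 7 markers of smooth muscle and pericytes had means per heart from -0.054 to 0.12 at ZT11 and from -0.094 to 0.062 at ZT23. Of the 14 inward rectifiers, 0 passed any test with limma, and Kcnj3 alone had an unadjusted p under 0.05 for light minus dark (10.5% of all genes did).

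In the leak channel class of 13 genes, Kcnk9 was the 1 member to pass the F test, and 0 passed light minus dark with limma (0 at an unadjusted p under 0.05). Kcnk2, which codes for the stretch-sensitive channel TREK-1 of heart muscle, differed by -0.021 ± 0.049 (SE) between light and dark. Kcnk4, which codes for its relative TRAAK, read -0.37, -0.22, -0.21 and -0.079 at ZT07 and 0.12, 0.00054, 0.057 and -0.25 at ZT19. All 4 ZT07 hearts were negative, as was 1 ZT19 heart, and the difference was -0.20 ± 0.078 (SE, adjusted p with limma 0.78). Kcnk7, a silent relative, was -0.041 at ZT07 and 0.092 at ZT19.

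Among the calcium- and sodium-activated channels, Kcnn3 (SK3) had a light-dark difference smaller than its SE, -0.023 ± 0.058, as did the large-conductance channel gene Kcnma1, 0.013 ± 0.019. Kcnn4, which codes for the intermediate-conductance channel of blood and immune cells, was -0.071 ± 0.026 (SE), with 11 of 12 light-phase hearts below the dark-phase median (unadjusted p 0.012, adjusted p with limma 0.30). Of 6 measured leukocyte markers, 0 passed this contrast with limma, and Csf1r alone (0.17) had an unadjusted p under 0.05, as 10.5% of all genes did. Kcnt2, which codes for a sodium-activated channel, read 0.38, 0.28, 0.32 and 0.065 at ZT03 and -0.45, 0.022, 0.14 and -0.051 at ZT15. Its ZT03 hearts were all positive, and ZT03 minus ZT15 was 0.35 ± 0.12 (SE, adjusted p with limma 0.19), or 0.22 without ZT15 replicate 1.

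**Figure D5:**
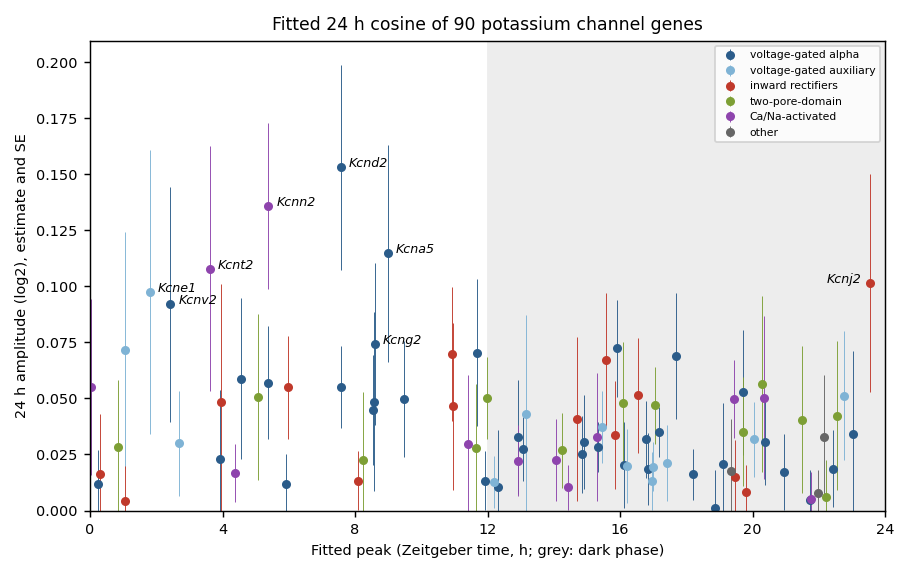
Amplitude (mean to peak, log2, with SE) against peak time of the fitted 24 h cosine for all 90 genes, coloured by channel class, with the dark phase in grey and the 8 largest amplitudes named. Kcnd2 (0.15) and Kcnn2 (0.14) stand highest, both with peaks in the light phase, and 0 of the 90 genes passed the test.

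Outside the Kcn symbols, 18 genes for partners of potassium channels were listed, of which 16 were measured. The F test passed for Nedd4l, which codes for a ubiquitin ligase that removes channels from the membrane (adjusted p with limma 0.035), and for Fhl1, which codes for a LIM-domain protein of muscle (0.035), that is for 2 of 16, where 1.48% of all genes passed. The means of Nedd4l were 0.049 at ZT03, 0.021 at ZT07 and 0.031 at ZT11 by day, then -0.19 at ZT15, 0.063 at ZT19 and -0.18 at ZT23 by night, lowest at ZT15 and ZT23. Those of Fhl1 were 0.18 at ZT03, 0.0079 at ZT07 and -0.072 at ZT11 by day, then -0.019 at ZT15, 0.015 at ZT19 and -0.12 at ZT23 by night, highest at ZT03. For light minus dark 0 of the 16 passed with limma, and at an unadjusted p under 0.05 there were 6, of which 3 were higher and 3 lower (10.5% of all genes, 6.3% higher and 4.23% lower). The sulfonylurea receptor genes Abcc8 (0.059) and Abcc9 (0.061), partners of Kcnj11 and Kcnj8, and the pacemaker channel genes Hcn2 (0.13) and Hcn4 (0.047) did not pass for light minus dark. Of 13 listed genes for pumps and carriers of potassium, 10 were measured and 0 passed any test with limma. Light minus dark had an unadjusted p under 0.05 for the pump subunit gene Atp1b3 (0.14) and the lysosomal channel gene Tmem175 (0.11), against 10.5% of all genes.

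In a given heart, 4 to 12 of the 90 members were higher or lower than in all 23 others. The count was 12 each in ZT19 replicate 1 and ZT23 replicate 4, and 11 each in ZT11 replicate 1, ZT15 replicate 2 and ZT19 replicate 2. The lowest array weights were 0.64 for ZT19 replicate 1, 0.65 for ZT23 replicate 4 and 0.54 for ZT11 replicate 1. Those of ZT15 replicate 2 (0.83) and ZT19 replicate 2 (0.96) were higher. Of all genes, 11.2% lay outside in ZT19 replicate 1, 12.4% in ZT23 replicate 4 and 16.2% in ZT11 replicate 1. Without these 3 hearts, a choice made after seeing the data, Kcnn2 passed the F test, light minus dark (0.24) and ZT03 minus ZT15 (0.36), and Kcnk9 did not pass the F test (adjusted p with limma 0.18). Without ZT11 replicate 1 and ZT19 replicate 2 the same held, with an adjusted p of 0.11 for Kcnk9.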

How the data were processed

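Hearts of 24 Clock delta 19 homozygous males, 4 at each of 6 time points, were read on Affymetrix arrays of 1 colour from total RNA, per the labels' protocols. The deposited log2 values (log base taken as 2) had been centred by the authors on each feature's median over the arrays, as the values show. The summarization, the normalization between arrays and any filter are not given in the sources used here. Depth over background is unknown and the number of arrays limits precision.

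Features were named through the platform annotation: 23521 of 34351 had 1 symbol, 1814 had several and 9016 none, and features of a gene were averaged, giving 22180 genes. No filter on dim features was possible. Fits used limma 3.58.1 in R 4.3.3 over all genes, with Benjamini-Hochberg adjustment at 0.05: an F test of 6 time-point means, light minus dark (ZT03, ZT07 and ZT11 minus ZT15, ZT19 and ZT23), 3 contrasts of time points 12 h apart, and a 24 h cosine. The fits were tested on simulated data.

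The members, lists and tests were chosen with earlier results of these data known. Named genes are 23 genes of cardiac currents, members that passed a test, the 6 smallest p-values per test, and the 4 members of largest spread within time points and of largest range of means. Alternatives were other scalings between arrays, array weights, robust shrinkage, single features, a replicate block, 12 h terms and left-out hearts (one at a time, 2 or 3 together). Promoters are RefSeq's for GRCm38.p6; no protein sequences were used.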

Additional observations from a re-analysis of the deposited data

Results flagged for a closer look

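In 10 of 210 groups of 4 hearts (35 named members at 6 time points), 1 heart stood apart from the other 3 by more than the 95% limit of Dixon's test on the gap over the range. Chance gives about 1 in 20 groups. Kcna4 at ZT11 was -0.11 in replicate 3, against -0.0011 to 0.0011 in the other 3 hearts. Kcnab1 at ZT03 was 0.13 in replicate 1, against -0.020 to 0.0020 in the other 3 hearts. Kcnd2 at ZT11 was 0.33 in replicate 4, against -0.11 to -0.061 in the other 3 hearts. Kcng2 at ZT11 was 0.23 in replicate 4, against -0.039 to 0.0029 in the other 3 hearts. Kcnj12 at ZT11 was 0.19 in replicate 2, against -0.0030 to 0.0072 in the other 3 hearts. Kcnj5 at ZT15 was 0.20 in replicate 1, against 0.0036 to 0.030 in the other 3 hearts. Kcnj5 at ZT23 was 0.059 in replicate 2, against -0.13 to -0.11 in the other 3 hearts. Kcnk2 at ZT15 was -0.18 in replicate 2, against -0.0010 to 0.032 in the other 3 hearts. Kcnk7 at ZT23 was -0.057 in replicate 1, against 0.016 to 0.027 in the other 3 hearts. Kcnk9 at ZT07 was -0.10 in replicate 2, against -0.0012 to 0.0081 in the other 3 hearts. The ZT11 means of Kcnd2 and Kcnj12 given above each rest on the heart named here, and replicate 4 of ZT11 was the high heart for Kcnd2 and Kcng2 alike.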

How the results depend on the processing

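Light minus dark of Kcnn2 passed under every alternative run. The F test over time points called 2 members, Kcnn2 and Kcnk9. It called 1, Kcnn2, with quantile normalization, with array weights, without ZT11 replicate 1 and ZT19 replicate 2 together, without ZT11 replicate 1, ZT19 replicate 1 and ZT23 replicate 4 together (chosen after seeing the data), and with the replicate block. It called 3 with features tested one by one, where Kcna4 joined, and 0 to 2 with single hearts left out. ZT03 minus ZT15 called 2 with features one by one (Kcnn2 and Kcna4) and 0 to 1 with single hearts left out. The other counts of members did not move under the alternatives, at 1 for light minus dark and 0 for the cosine, ZT07 minus ZT19 and ZT11 minus ZT23. With the replicate block the adjusted p of Kcnk9 was 0.081, and no other call among the members changed. The labels do not say that equal replicate numbers mark shared litters or days: the deviations of hearts of equal number correlated at -0.23 to 0.23 (8 of 60 pairs over 0.1, against 18 of 180 pairs of unequal number). The best correlate had the same number for 10 of 24 hearts, where 5 of the 20 candidates of each heart share its number. These values do not settle whether the numbers mark pairs. The main fits took the hearts as unpaired, and the block was kept as an alternative. With single hearts left out, the F test over all 22180 genes called 28 to 467 genes (329 with all hearts), the light-dark contrast 51 to 183 (84), ZT03 minus ZT15 25 to 326 (239) and the cosine 3 to 45 (14). Over all genes the F test called 218 with the replicate block. Array weights gave 430 for ZT03 minus ZT15 and 59 for the cosine, quantile normalization 144 for light minus dark, 30 for the cosine, 8 for ZT07 minus ZT19 and 1 for ZT11 minus ZT23, and 12 h terms 74 for the cosine. Without ZT11 replicate 1 and ZT19 replicate 2 there were 131 for light minus dark, 365 for ZT03 minus ZT15 and 5 for ZT11 minus ZT23. Without the 3 hearts there were 208 for the F test, 8 for the cosine and 360 for ZT03 minus ZT15, and 1 each for ZT07 minus ZT19 and ZT11 minus ZT23. The cause of these changes was not tested.

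Light-dark differences that turned their sign were all near 0 and not called: Kcnip2 was 0.054 without ZT11 replicate 1 and ZT19 replicate 2, Kcnj12 -0.0089 with quantile normalization and -0.0013 with array weights, and Kcng4 0.00062 with arrays set to a median of 0. Without the 3 hearts, Kcnq1 was -0.0011, Kcnn3 0.0070 and Kcnk2 1.5e-05. With single hearts left out, the differences ran from -0.048 to 0.037 for Kcnip2, -0.023 to 0.032 for Kcnj12, -0.0098 to 0.011 for Kcng4, -0.0026 to 0.040 for Kcnq1, -0.00097 to 0.064 for Kcnj11, -0.050 to 0.010 for Kcnn3 and -0.012 to 0.0020 for Kcne2. No alternative without centring was possible, and signal over background is unknown, so members that heart muscle may not express could not be set aside.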
